A study of Mus musculus with 32 samples.

Results

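Spinal microglia of SOD1G93A/LAG-3+/+ mice were compared between 2 stages of disease, postnatal day 140 (P140) and postnatal day 120 (P120), over all genes of one count table. The comparison uses 6 of the 32 samples of the series, 3 libraries at each age, taken by their labels. SOD1G93A mice carry a mutant human SOD1 transgene in all cells and develop a motor neuron disease that models amyotrophic lateral sclerosis. The study counts P120 as an early and P140 as a late symptomatic stage, and both groups here have intact Lag3. The cells were CD11b+/CD45int, the gate used for microglia, and were sorted from lumbar spinal cord. Libraries were made with a SMART-seq kit, which amplifies full-length cDNA from little RNA. The same table holds 3 libraries at each age from SOD1G93A/LAG-3-/- mice, which shared the model and entered only the last comparison. No library without the transgene is in this table, so each difference is one between stages of a diseased cord and not one from health.

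Microglia are the resident macrophages of the central nervous system. In the healthy cord they depend on CSF1 receptor and TGF-beta signalling and express a homeostatic set of genes such as Tmem119 and P2ry12. Around dying neurons they can take up a program known as disease-associated microglia (DAM), in which the lipid receptor TREM2 and its adaptor TYROBP act upstream of genes for lipid handling, lysosomes and secreted factors. Activated microglia can also present antigen on MHC class II. LAG-3 is an inhibitory immune checkpoint receptor whose classical ligand is MHC class II.

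The 6 libraries carried the markers of microglia. Tmem119 lay between 1431 and 2450 CPM, and P2ry12 between 1921 and 5409 CPM. CPM is the count scaled to a common library size after TMM, edgeR's correction for differences in composition, without correction for transcript length. Lag3 (ENSMUSG00000030124, chromosome 6 of GRCm39, from 124881320 to 124888765 on the minus strand) was present in every library of both groups, at 63.0, 61.7 and 53.4 CPM at P120 and 28.1, 24.4 and 25.7 CPM at P140, against 0.0239 to 0.462 CPM in the 6 libraries from LAG-3-/- mice. The genotype labels therefore held in each library. Lag3 was lower in each P140 library than in each P120 library, but the change did not pass the test (log2 fold change -1.19 ± 0.52 (SE), adjusted p = 0.136).

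The P140 libraries differed from the P120 libraries in quantities other than single genes. Totals were 33703287 to 49512632 counts at P120 and 23981406 to 33996582 at P140. Thinned to 23981240 counts each, the P120 libraries still detected more genes (22955 to 23559) than the P140 libraries (18896 to 19949). The 100 most abundant genes took 30.3 to 33.8% of the counts at P120 and 42.3 to 47.8% at P140. Long transcripts were low and short ones high at P140. The median log2 level of long protein-coding genes minus that of short ones, each against the P120 mean, was -0.05 to 0.06 in the P120 libraries and -1.58 to -2.33 in the P140 libraries. Over 12438 protein-coding genes the log2 fold change correlated with transcript length at a Spearman rho of -0.48, a description across genes that share these libraries. The median log2 fold change ran from 0.97 in the decile of shortest transcripts to -1.18 in that of the longest. One library of the LAG-3-/- mice at P140 had the same tilt (-1.61) and the other two had less (-0.27 and -0.08). RNA quality, input and stage cannot be told apart here, so the gene lists and most named genes below are also given from a second fit with offsets for transcript length and GC content, called the length-adjusted fit, in which rho was -0.01.

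**Figure D1:**
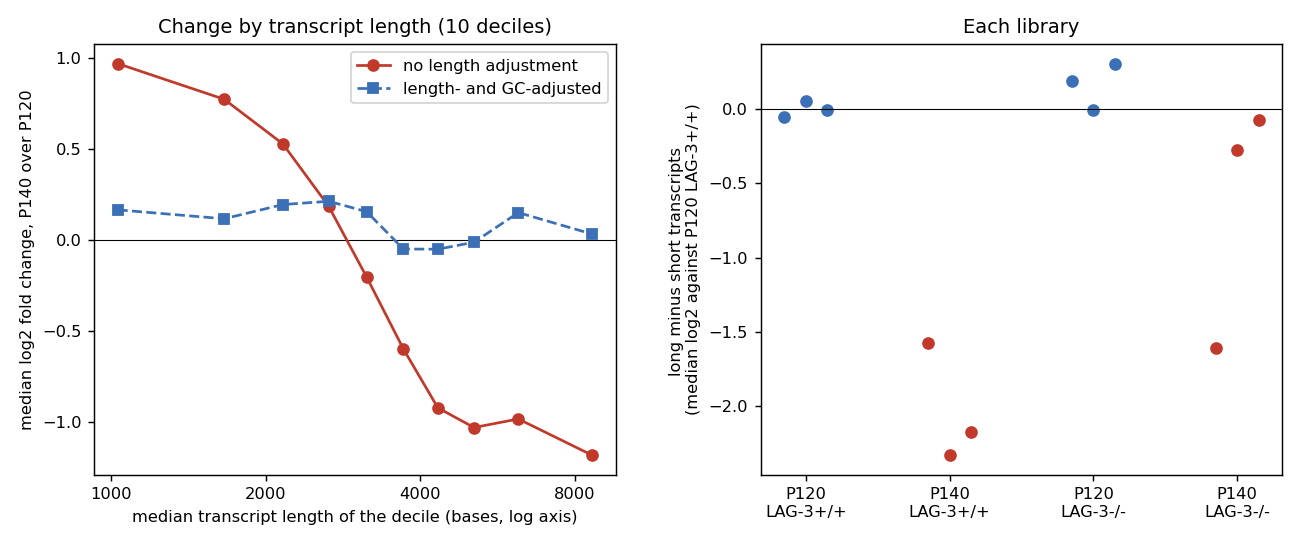
Median log2 fold change of P140 against P120 in 10 deciles of transcript length (bases, log axis), without and with the length adjustment, and the difference between the medians of long and short transcripts (log2) in each of the 12 libraries (P120 blue, P140 red). The unadjusted medians fall from 0.97 to -1.18 and the 3 P140 LAG-3+/+ libraries lie between -1.58 and -2.33.

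Sex transcripts also differed between the groups. Y-linked transcripts summed to 345, 382 and 23 CPM at P120 and to 5.57, 7.21 and 11.8 CPM at P140. Xist, the noncoding RNA of the inactive X chromosome, was at 0.0617, 0.0185 and 173 CPM at P120 and at 109, 134 and 129 CPM at P140. Both libraries with high Y-linked levels were thus at P120 and every P140 library had high Xist, so sex and stage cannot be fully told apart. Xist did not match the sex that the study lists for 4 of the 6 libraries. With the Y-linked level of the 12 libraries as a covariate 467 genes were higher (2.5%) and 923 lower (4.94%). It left no higher call among homeostatic markers, chemokines, mitochondrially encoded, ribosomal protein or heat shock genes, while 4093 of all genes were at an unadjusted p under 0.05 in that edgeR fit.

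Of 18669 genes tested, 2219 were higher at P140 (11.9%) and 2899 lower (15.5%) at an adjusted p under 0.1, by edgeR's quasi-likelihood test in a model of all 12 libraries of the table. These shares are the background for every list below, but they depended on transcript length. In the decile of shortest protein-coding transcripts 45.4% were higher and 1.61% lower, and in that of the longest 2.9% and 36.6%. The share of all genes without overlap between the groups was not counted, and many named genes were chosen by small p-values or large changes. A lack of overlap, or a gene higher or lower in every P140 library, therefore only describes that gene's values. The median log2 fold change over all genes was -0.22, and lists are read against it, some also against genes of like transcript length. The length-adjusted fit called 1874 genes higher (10%) and 1810 lower (9.7%), of which 1137 and 1356 were called in the same direction by both fits and 14 in opposite directions. Most lists are also given with the Y-linked covariate, with scaling by library totals and without those single libraries that move a count by more than 1.5 times. In these edgeR fits 5415 (length adjustment), 4093 (Y-linked covariate) and 6360 (library totals) of all genes were at an unadjusted p under 0.05. Scaling by library totals moved the median to -0.70 and gave 971 higher (5.2%) and 4120 lower (22.1%) calls. DESeq2 called 3286 of the 37610 genes it fitted higher (8.74%) and 3725 lower (9.9%). It shared 2214 of the higher and 2864 of the lower calls of edgeR. Many of the 37610 genes were outside edgeR's filter, whereas the DESeq2 counts of lists below cover only genes that edgeR tested. The DESeq2 shares are therefore not a background for those counts. Leaving out P120 library 1, 2 or 3 lowered the counts to 1408, 1348 and 1352 higher and 1926, 1870 and 1931 lower calls. Whether libraries came from separate animals is not stated in the labels, so p-values measure the spread between these libraries.

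**Figure D2:**
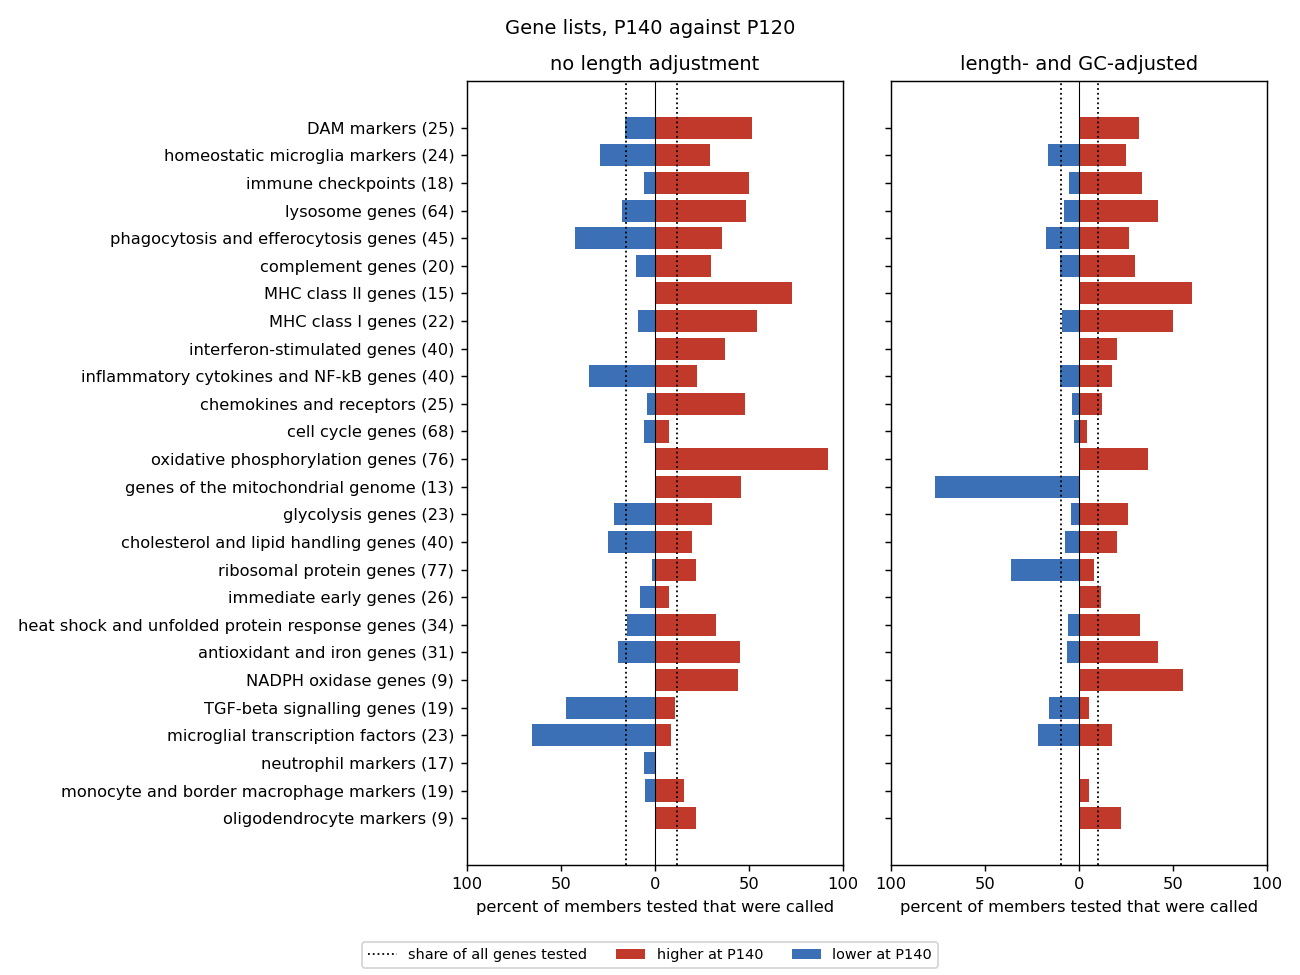
Percent of tested members called higher (red, to the right) and lower (blue, to the left) at P140 in the lists with at least 9 tested members (numbers in parentheses), without and with the length adjustment, with the percent over all genes as dotted lines. Before adjustment oxidative phosphorylation (70 of 76) and MHC class II genes (11 of 15) reach farthest to the right, and with it the mitochondrial genome (10 of 13) reaches farthest to the left.

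Most genes of antigen presentation on MHC class II rose at P140. 11 of the 15 tested genes of this list (16 members) rose and none fell, by edgeR; at an unadjusted p under 0.05 11 were higher and 0 lower, and DESeq2 called 11 higher and 0 lower. The median log2 fold change was 1.27. In the length decile that holds the list's median transcript length of 1431 bases it was 0.77, with 36.1% of genes higher. H2-Aa, the alpha chain of the I-A molecule that presents peptides to CD4+ T cells, stood at 3.56, 3.83 and 5.38 CPM at P120 and 86.2, 89.9 and 87.3 CPM at P140. H2-Aa was low in all 3 P120 libraries and high, within a narrow range, in all 3 P140 libraries (log2 fold change 4.37 ± 0.44 (SE), adjusted p = 0.00185, length-adjusted 3.42, adjusted p = 0.00721). Its partner beta chain H2-Ab1 stood at 35.8, 63.0 and 31.1 CPM at P120 and 222, 254 and 202 CPM at P140, and H2-Eb1, the beta chain of I-E, at 3.33, 0.185 and 1.56 CPM at P120 and 38.2, 36.3 and 41.1 CPM at P140. Neither gene's groups overlapped (H2-Ab1 2.38 ± 0.41 (SE) and H2-Eb1 4.51 ± 0.88 (SE) as log2 fold changes, adjusted p = 0.00635 and 0.00816, length-adjusted 1.91 and 3.75). The MHC class II genes gave 9 higher with length adjustment (median 0.65), 6 with the Y-linked covariate and 9 with library totals. Ctss, the protease that cleaves the invariant chain, was among the most abundant genes of the libraries, at 10590, 9402 and 8464 CPM at P120 and 22160, 30650 and 28110 CPM at P140 (log2 fold change 1.51 ± 0.29 (SE), adjusted p = 0.00821, length-adjusted 0.49, adjusted p = 0.0961).

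The sequences before 3 of these genes are shown because they rose together and share a motif known from MHC class II promoters. H2-DMb1, a chain of the molecule that exchanges peptides on class II, was named after its values were seen and rose by 1.27 on the log2 scale. Each is the 250 bases before the start in RefSeq (GRCm38.p6), read 5′ to 3′ on the gene's strand, with matches to the searched motifs in capitals.
H2-Aa, chr17:34287824-34288073, minus strand: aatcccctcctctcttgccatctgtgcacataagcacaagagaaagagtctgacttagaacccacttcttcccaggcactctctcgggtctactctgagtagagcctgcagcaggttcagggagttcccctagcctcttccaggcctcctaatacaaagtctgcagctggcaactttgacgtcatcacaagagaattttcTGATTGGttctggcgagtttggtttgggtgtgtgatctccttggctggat
H2-Eb1, chr17:34305617-34305866, plus strand: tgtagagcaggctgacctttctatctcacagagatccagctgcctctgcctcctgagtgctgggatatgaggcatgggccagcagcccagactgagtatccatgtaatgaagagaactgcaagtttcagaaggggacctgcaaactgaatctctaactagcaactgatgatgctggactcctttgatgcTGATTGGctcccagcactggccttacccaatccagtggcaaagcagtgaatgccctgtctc
H2-DMb1, chr17:34152941-34153190, plus strand: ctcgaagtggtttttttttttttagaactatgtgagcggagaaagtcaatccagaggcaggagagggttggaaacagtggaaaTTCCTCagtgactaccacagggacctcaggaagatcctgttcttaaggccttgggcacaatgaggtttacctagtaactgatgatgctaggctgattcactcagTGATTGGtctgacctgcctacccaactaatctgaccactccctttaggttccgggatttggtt
The motif CCAATCA, the Y box, reads as TGATTGG on these strands and lies 50, 61 and 63 bases before the start. It was searched on both strands after the windows had been read. It is in the windows of 4 of the 7 called members that have one (57.1%) and of 9.0% of the 27025 genes with a window. These shares and those below count any window of a gene, and the windows also hold 50 bases after the start. The other motifs searched on both strands were CACGTG (the E-box), TGACTCA (the AP-1 site), TTGCGCAA (the C/EBP site), GAGGAA (a core of PU.1 sites) and TATAAA (the TATA box). The PU.1 core was in 3 of the 7 (42.9%, against 31.3% of genes), once 167 bases before the start of H2-DMb1, and the E-box, the AP-1 site and the TATA box were in 1 each (14.3%, against 8.09%, 5.95% and 15.7%), while the C/EBP site (0.207% of genes) was in none. A match is a description of these letters only. Of the called members, 4 had no window in the table.

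**Figure D3:**
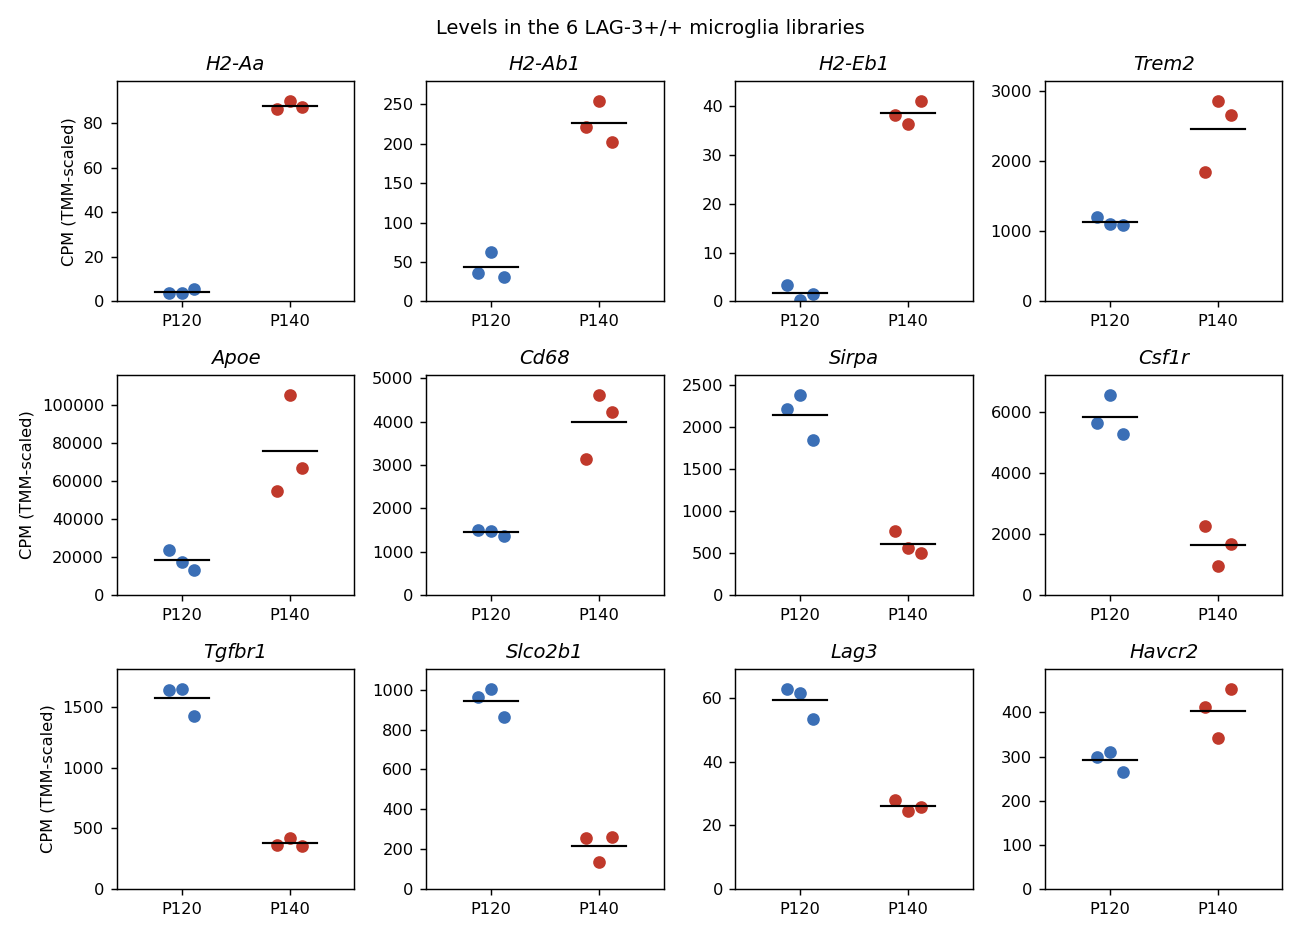
Level (CPM, linear axes from 0) of 12 named genes in each P120 (blue) and P140 (red) library, one point per library and a bar at each group's mean. H2-Aa rises from between 3.56 and 5.38 CPM to between 86.2 and 89.9 CPM, and its groups do not overlap.

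Of the 25 DAM markers, all of them tested, 13 rose and 4 fell, with a median log2 fold change of 1.22. Apoe, the lipoprotein that carries lipids between brain cells, was the most abundant, at 23960, 17580 and 13200 CPM at P120 and 54970, 105400 and 66840 CPM at P140. Apoe did not overlap between groups (log2 fold change 2.05 ± 0.64 (SE), adjusted p = 0.0444, length-adjusted 2.05, adjusted p = 0.0620). Trem2 stood at 1199, 1096 and 1085 CPM at P120 and 1845, 2856 and 2654 CPM at P140 (log2 fold change 1.12 ± 0.25 (SE), adjusted p = 0.0128, length-adjusted 0.64, adjusted p = 0.0334) and its adaptor Tyrobp at 2224, 1717 and 1717 CPM at P120 and 3352, 5250 and 4605 CPM at P140 (log2 fold change 1.22 ± 0.33 (SE), adjusted p = 0.0266, length-adjusted 0.52, adjusted p = 0.153). Both were thus higher in every P140 library. Cd68, a lysosomal membrane protein of phagocytes, stood at 1509, 1466 and 1359 CPM at P120 and 3133, 4614 and 4225 CPM at P140 (log2 fold change 1.47 ± 0.26 (SE), adjusted p = 0.00636, length-adjusted 0.58, adjusted p = 0.0333). Lgals3, encoding galectin-3, stood at 191, 214 and 219 CPM at P120 and 523, 1149 and 728 CPM at P140 (log2 fold change 1.94 ± 0.44 (SE), adjusted p = 0.0135, length-adjusted 1.16, adjusted p = 0.0804), and Spp1, encoding osteopontin, at 4881, 4382 and 3861 CPM at P120 and 10260, 18350 and 15500 CPM at P140 (log2 fold change 1.75 ± 0.52 (SE), adjusted p = 0.0395, length-adjusted 1.18, adjusted p = 0.138). The other members that rose were the tetraspanins Cd63 and Cd9 (log2 fold changes 1.70 and 1.38), the protease inhibitor Cst7 (1.87), the chemokine Ccl6 (1.48), the protease Ctsl (1.38), the ferritin heavy chain Fth1 (1.23) and the glucan receptor Clec7a (1.14).

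Not all DAM markers followed. Axl, a receptor for phosphatidylserine bridged by GAS6, stood at 1159, 904 and 673 CPM at P120 and 308, 175 and 157 CPM at P140 and was lower in every P140 library (log2 fold change -2.09 ± 0.49 (SE), adjusted p = 0.0147, length-adjusted -0.97, adjusted p = 0.142). Csf1 (-1.96), Timp2 (-2.06) and Ank (-1.77) also fell. Itgax (CD11c) stood at 181, 158 and 135 CPM at P120 and 111, 117 and 111 CPM at P140, lower in each P140 library, and did not pass the test (log2 fold change -0.48 ± 0.34 (SE), adjusted p = 0.350, length-adjusted 0.31, adjusted p = 0.577). Lpl, a lipase, Fabp5, Gpnmb, Igf1, Ch25h, Ctsb and Ctsd did not pass either, with log2 fold changes of 0.60, 1.81, 1.74, 0.74, 0.60, 0.19 and 0.20. The length-adjusted fit called 8 markers higher, with Apoe, Cd68, Trem2, Cd63, Ctsl and Lgals3 among them and Lpl (1.17, adjusted p = 0.0408) and Ctsb (1.16, adjusted p = 0.0259) gained. The 4 markers that fell were no longer called, and Clec7a was at -0.00, adjusted p = 1.0. Calls of Apoe were lost in the fits without P120 library 2 (adjusted p = 0.128), P120 library 3 (adjusted p = 0.146) and P140 library 2 (adjusted p = 0.128). Spp1 lost its call in the fits without P120 library 2 (adjusted p = 0.113), P120 library 3 (adjusted p = 0.124) and P140 library 2 (adjusted p = 0.109), Timp2 in 4 of the 6 fits (all but those without P120 library 3 and P140 library 1), with an adjusted p of 0.111 to 0.145, Clec7a in 5 of the 6 fits (all but the one without P140 library 1), with an adjusted p of 0.105 to 0.190 and Cst7 in 6 of the 6 fits, with an adjusted p of 0.103 to 0.228. The DAM markers gave 8 higher and 0 lower with length adjustment (median 0.58), 1 and 2 with the Y-linked covariate and 11 and 5 with library totals. Higher and lower calls among them were 11 and 2 without P140 library 3, where Ank was no longer called (adjusted p = 0.115).

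Homeostatic genes divided. Of 24 tested members, 7 rose and 7 fell (median 0.44). The fallen genes included receptors and regulators of microglial identity. Csf1r, the CSF1 receptor on which microglial survival depends, stood at 5635, 6561 and 5278 CPM at P120 and 2258, 965 and 1674 CPM at P140 and was lower in every P140 library (log2 fold change -1.83 ± 0.29 (SE), adjusted p = 0.00552, length-adjusted -0.53, adjusted p = 0.151). Tgfbr1, a TGF-beta receptor, stood at 1642, 1653 and 1428 CPM at P120 and 365, 419 and 357 CPM at P140 (log2 fold change -2.05 ± 0.39 (SE), adjusted p = 0.00798, length-adjusted -1.14, adjusted p = 0.0332). Mertk, a receptor for the clearance of apoptotic cells, stood at 354, 355 and 359 CPM at P120 and 110.2, 109.9 and 63.9 CPM at P140 (log2 fold change -1.91 ± 0.32 (SE), adjusted p = 0.00603, length-adjusted -0.97, adjusted p = 0.0308). Sall1, a transcription factor of microglial identity, stood at 158, 189.9 and 170.5 CPM at P120 and 58.4, 53.2 and 46.6 CPM at P140 (log2 fold change -1.71 ± 0.32 (SE), adjusted p = 0.00751, length-adjusted -0.52, adjusted p = 0.241). Each of these had no overlap between groups. Slco2b1 (-2.13), Rhob (-1.99) and Mef2c (-0.76) also fell, though Mef2c turned to 0.26, adjusted p = 0.413 after the adjustment.

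Among the markers that rose were genes of secreted proteins. Serpine2, a secreted protease inhibitor, stood at 2032, 1844 and 1590 CPM at P120 and 4094, 5567 and 5250 CPM at P140 (log2 fold change 1.45 ± 0.30 (SE), adjusted p = 0.0102, length-adjusted 1.04, adjusted p = 0.0290). Olfml3 (1.07), Fcrls (Fcrl2 in GENCODE, 1.06), Gpr34 (1.06), Cst3 (0.77) and Sparc (0.66) also rose. Serpine2, Olfml3 and Fcrls were still called after the adjustment. Tmem119 (0.44), P2ry12 (0.61), Siglech (0.59), Selplg (0.70), P2ry13 (0.70), Bin1 (0.29), Slc2a5 (0.44), Egr1 (0.34), Jun (0.08) and Cx3cr1 (-0.63) did not pass. Cx3cr1 passed, lower, only without P140 library 1 (adjusted p = 0.0455). The homeostatic markers gave 6 higher and 4 lower with length adjustment (median 0.33), 0 and 6 with the Y-linked covariate and 4 and 8 with library totals. Homeostatic counts were 4 and 7 without P120 library 1 or P140 library 3. Gpr34 lost its call in the fits without P120 library 1 (adjusted p = 0.131) and P140 library 3 (adjusted p = 0.10), Sparc in 5 of the 6 fits (all but the one without P140 library 1), with an adjusted p of 0.117 to 0.186 and Cst3 in 5 of the 6 fits (all but the one without P140 library 1), with an adjusted p of 0.175 to 0.240. In bulk samples, fewer cells of a state and less RNA of that kind per cell cannot be told apart.

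**Figure D4:**
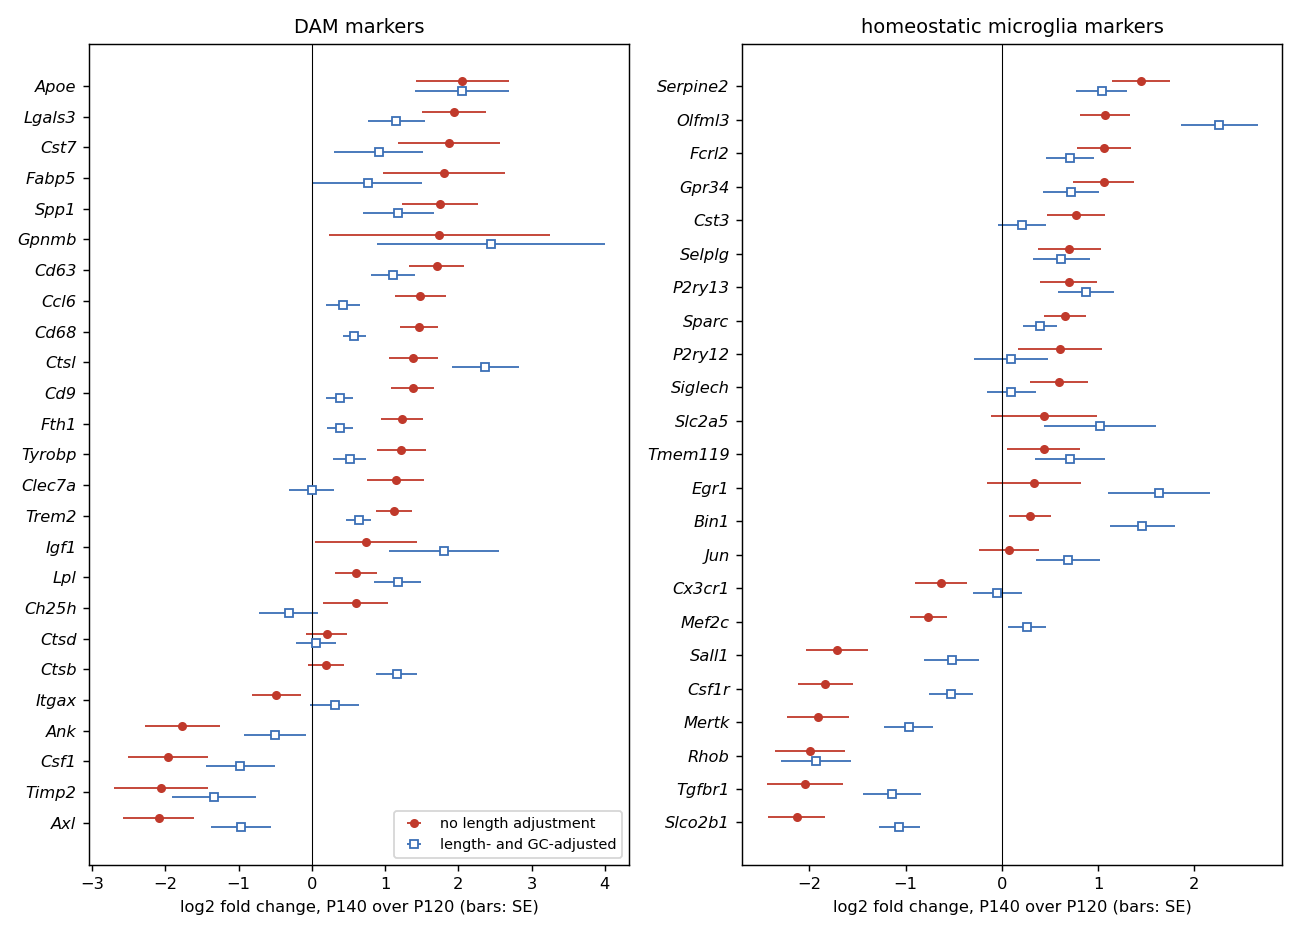
Log2 fold change of P140 against P120 (error bars are SE) for the DAM markers and the homeostatic markers reported here, without and with the length adjustment. DAM markers range from Axl at -2.09 to Apoe at 2.05, and Csf1r moves from -1.83 to -0.53 with the adjustment.

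Among TGF-beta signalling genes and transcription factors more fell than rose before the adjustment. Of 19 tested TGF-beta genes (21 members), 9 fell and 2 rose (median -1.38). Of 23 tested transcription factors, 15 fell and 2 rose (median -1.14). The median transcript lengths of these lists were 5389 and 4567 bases. In the length deciles that hold them 33.6% and 33.5% of genes were lower, with medians of -1.03 and -0.92. Tgfbr2, the other TGF-beta receptor, stood at 636, 736 and 589 CPM at P120 and 133, 151 and 129 CPM at P140 and was lower in every P140 library (log2 fold change -2.25 ± 0.36 (SE), adjusted p = 0.00562, length-adjusted -0.92, adjusted p = 0.0194). Ikzf1 stood at 104, 122 and 128 CPM at P120 and 25.5, 32.8 and 27.8 CPM at P140 (log2 fold change -2.04 ± 0.36 (SE), adjusted p = 0.00641, length-adjusted -0.85, adjusted p = 0.0465) and Bhlhe41 at 214, 166 and 198 CPM at P120 and 73.9, 61.8 and 54.5 CPM at P140 (log2 fold change -1.6 ± 0.29 (SE), adjusted p = 0.00683, length-adjusted -0.42, adjusted p = 0.274). The TGF-beta genes gave 1 higher and 3 lower with length adjustment (median -0.5), 1 and 3 with the Y-linked covariate and 1 and 9 with library totals. TGF-beta counts were 2 and 5 without P120 library 1, 2 or 3. The transcription factors gave 4 higher and 5 lower with length adjustment (median -0.33), 0 and 6 with the Y-linked covariate and 1 and 17 with library totals. Transcription factor counts were 1 and 14 without P120 library 1, 1 and 12 without P120 library 2 and 1 and 13 without P140 library 3.

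Of 64 lysosomal genes 31 rose and 11 fell (median 0.66). The lysosomal genes gave 27 higher and 5 lower with length adjustment (median 0.48), 7 and 4 with the Y-linked covariate and 24 and 18 with library totals. Ctsc, a dipeptidyl peptidase that activates granule proteases, stood at 1545, 1570 and 1641 CPM at P120 and 3335, 3704 and 3897 CPM at P140 and did not overlap (log2 fold change 1.2 ± 0.19 (SE), adjusted p = 0.00561, length-adjusted 1.08, adjusted p = 0.00782). Atp6v1d, a subunit of the proton pump that acidifies lysosomes, stood at 121, 118 and 129 CPM at P120 and 251, 429 and 389 CPM at P140 (log2 fold change 1.54 ± 0.25 (SE), adjusted p = 0.00565, length-adjusted 1.91, adjusted p = 0.00782). Atp6v0d2, another subunit of that pump, was at 0 in all P120 libraries and at 3.53, 26.5 and 8.11 CPM at P140. Its P140 group mean, to which library 2 gave most, was at least 197-fold higher against a floor of 3 counts per library. It lost its call without P120 library 1, 2 or 3 (adjusted p = 0.108, 0.112 and 0.107). Lamp1, the membrane glycoprotein of lysosomes, stood at 2435, 2146 and 1838 CPM at P120 and 741, 325 and 148 CPM at P140 and was lower in every P140 library (log2 fold change -2.40 ± 0.70 (SE), adjusted p = 0.0354, length-adjusted -2.51, adjusted p = 0.0435), although it lost its call in the fits without P140 library 2 (adjusted p = 0.111) and P140 library 3 (adjusted p = 0.103).

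Phagocytosis and efferocytosis genes moved in both directions, 16 of 45 higher and 19 lower (median -0.06). The phagocytosis genes gave 12 higher and 8 lower with length adjustment (median 0.31), 2 and 11 with the Y-linked covariate and 10 and 22 with library totals. Plcg2, a phospholipase that signals downstream of TREM2, stood at 168, 159 and 135 CPM at P120 and 36.5, 26.0 and 43.9 CPM at P140 (log2 fold change -2.12 ± 0.28 (SE), adjusted p = 0.00497, length-adjusted -1.07, adjusted p = 0.00923). Dock2, a Rac activator of motile leukocytes, stood at 428, 399 and 372 CPM at P120 and 131, 81.0 and 83.0 CPM at P140 (log2 fold change -2.02 ± 0.28 (SE), adjusted p = 0.00497, length-adjusted -0.80, adjusted p = 0.0252), and the integrin chain Itgav, which binds bridging proteins on dead cells and activates TGF-beta, at 162, 129 and 138 CPM at P120 and 39.8, 39.2 and 27.2 CPM at P140 (log2 fold change -2.01 ± 0.31 (SE), adjusted p = 0.00535, length-adjusted -0.89, adjusted p = 0.0337). All 3 were lower in each P140 library than in any P120 library. Among 20 tested complement genes 6 rose and 2 fell (median 0.46). The complement genes gave 6 higher and 2 lower with length adjustment (median 0.38), 1 and 2 with the Y-linked covariate and 4 and 3 with library totals. Complement counts were 3 and 2 without P140 library 2. C5ar1, the C5a receptor, stood at 224, 245 and 258 CPM at P120 and 428, 639.8 and 522 CPM at P140 (log2 fold change 1.13 ± 0.20 (SE), adjusted p = 0.00636, length-adjusted 1.0, adjusted p = 0.0108), whereas Itgam, the CD11b chain used in the sort, stood at 740.5, 776 and 653 CPM at P120 and 203, 247 and 255 CPM at P140 (log2 fold change -1.62 ± 0.25 (SE), adjusted p = 0.00547, length-adjusted -0.99, adjusted p = 0.0145). C5ar1 was higher and Itgam lower in every P140 library.

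Of 22 tested genes of MHC class I presentation 12 rose and 2 fell (median 1.14). Psmb9, a subunit of the immunoproteasome that cuts peptides for class I, stood at 46.4, 27.1 and 32.3 CPM at P120 and 139.8, 114 and 134 CPM at P140 (log2 fold change 1.87 ± 0.33 (SE), adjusted p = 0.00638, length-adjusted 1.24, adjusted p = 0.0203). Psmb10 (1.31) and the proteasome activator Psme2 (1.44) also rose. The MHC class I genes gave 11 higher and 2 lower with length adjustment (median 0.78), 2 and 1 with the Y-linked covariate and 10 and 2 with library totals. Higher and lower class I calls were 11 and 1 without P140 library 2.

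Of 40 tested interferon-stimulated genes (42 members) 15 rose and none fell by edgeR, with 1 lower at an unadjusted p under 0.05 and DESeq2 calling 20 higher and 0 lower (median 1.14). Their summed level was 2458, 2079 and 2008 CPM at P120 and 9097, 2666 and 4069 CPM at P140, so P140 library 1 was far above the other libraries and P140 library 2 only slightly above P120. Scaled by library totals the sums were 2598, 2270 and 2330 at P120 and 7782, 1956 and 3116 at P140. On that scale P140 library 2 was below every P120 library. Slfn2, a regulator of leukocyte quiescence, stood at 128, 141 and 153 CPM at P120 and 652, 449 and 379.6 CPM at P140 (log2 fold change 1.81 ± 0.25 (SE), adjusted p = 0.00497, length-adjusted 1.23, adjusted p = 0.0100). Usp18, the protease that removes ISG15 and dampens interferon signalling, stood at 59.7, 31.9 and 40.5 CPM at P120 and 509, 147 and 242 CPM at P140 (log2 fold change 2.77 ± 0.61 (SE), adjusted p = 0.0124, length-adjusted 2.09, adjusted p = 0.0386). Both were thus higher in all 3 P140 libraries, and spread more widely at P140. Bst2, the membrane tether of virions, stood at 96.8, 87.2 and 96.6 CPM at P120 and 225, 209 and 246 CPM at P140 (log2 fold change 1.28 ± 0.33 (SE), adjusted p = 0.0218, length-adjusted 0.63, adjusted p = 0.131). The interferon-stimulated genes gave 8 higher and 0 lower with length adjustment (median 1.05), 2 and 0 with the Y-linked covariate and 8 and 2 with library totals. Their count was not stable over libraries, at 9 and 0 without P120 library 1, 5 and 0 without P120 library 2, 7 and 0 without P120 library 3 and 7 and 4 without P140 library 1.

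Chemokines rose more often than they fell, 12 against 1 of 25 tested (34 members; median 1.27). Ccl12 and Ccl2, monocyte attractants, stood at 209, 208 and 148 CPM at P120 and 1179, 559 and 472 CPM at P140 (log2 fold change 1.97 ± 0.45 (SE), adjusted p = 0.0134, length-adjusted 0.78, adjusted p = 0.195) and at 27.5, 38.2 and 63.6 CPM at P120 and 234, 61.7 and 223 CPM at P140 (log2 fold change 2.0 ± 0.46 (SE), adjusted p = 0.0140, length-adjusted 0.92, adjusted p = 0.276). Ccl12 did not overlap between groups, whereas Ccl2 in P140 library 2 was below the highest P120 library. Cxcl16, a scavenger of phosphatidylserine and a chemokine, stood at 265, 272 and 267 CPM at P120 and 584, 649.6 and 718 CPM at P140 (log2 fold change 1.28 ± 0.27 (SE), adjusted p = 0.0101, length-adjusted 1.48, adjusted p = 0.00998), with no overlap. The chemokine genes gave 3 higher and 1 lower with length adjustment (median 0.80), 0 and 0 with the Y-linked covariate and 9 and 3 with library totals. Chemokine counts were 7 and 1 without P120 library 2, 9 and 3 without P140 library 1 and 10 and 2 without P140 library 3. Of 40 tested cytokine and NF-kB genes 9 rose and 14 fell (median -0.39). Tnip1, an inhibitor of NF-kB, stood at 17.6, 17.3 and 14.1 CPM at P120 and 1.08, 0.284 and 2.23 CPM at P140 and Tnfrsf1b, a TNF receptor, at 258, 215 and 193 CPM at P120 and 100.5, 57.1 and 108 CPM at P140 (log2 fold changes -3.75 and -1.32, adjusted p = 0.0125 and 0.0108, length-adjusted -2.97 and -0.32). Tlr7, an endosomal receptor of single-stranded RNA, fell by 1.03 on the log2 scale, and turned to -0.30, adjusted p = 0.258 after the adjustment. The cytokine and NF-kB genes gave 7 higher and 4 lower with length adjustment (median -0.12), 1 and 4 with the Y-linked covariate and 2 and 17 with library totals. Cytokine and NF-kB counts were 4 and 11 without P120 library 1, 3 and 9 without P120 library 2, 3 and 10 without P120 library 3 and 3 and 13 without P140 library 3.

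The nuclear genes of oxidative phosphorylation were nearly all higher before the adjustment. 70 of 76 rose and none fell by edgeR (0 lower at an unadjusted p under 0.05 and 0 by DESeq2, which called 73 higher), with a median of 1.13. Their median transcript length was 1140 bases, within the shortest length decile, where the median was 0.97 and 45.4% of genes were higher. Ndufa8, a complex I subunit, stood at 58.8, 65.0 and 61.0 CPM at P120 and 126, 221 and 179 CPM at P140 (log2 fold change 1.51 ± 0.25 (SE), adjusted p = 0.00565, length-adjusted 0.73, adjusted p = 0.0174), and Ndufb8, another, at 87.9, 78.6 and 75.5 CPM at P120 and 184, 348 and 258 CPM at P140 (log2 fold change 1.71 ± 0.31 (SE), adjusted p = 0.00699, length-adjusted 0.99, adjusted p = 0.0138). Atp5mf, an ATP synthase subunit, stood at 57.9, 54.0 and 62.2 CPM at P120 and 119, 204 and 132 CPM at P140 (log2 fold change 1.38 ± 0.24 (SE), adjusted p = 0.00618, length-adjusted 0.40, adjusted p = 0.209). The oxidative phosphorylation genes gave 28 higher with length adjustment (median 0.47), 11 with the Y-linked covariate and 42 with library totals.

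Genes of the mitochondrial genome changed sign with the adjustment. Of 13 genes 6 rose without it (median 0.30) and 10 fell with it (median -0.84), while scaling by library totals gave 2 higher and 4 lower. Higher and lower mitochondrial calls were 2 and 0 without P120 library 2 or P140 library 2 and 3 and 0 without P120 library 3. mt-Co1, a subunit of cytochrome oxidase, stood at 1897, 1691 and 1673 CPM at P120 and 3008, 4145 and 3591 CPM at P140 (log2 fold change 1.03, length-adjusted -0.12), and mt-Cytb, the cytochrome of complex III, at 2075, 1806 and 1738 CPM at P120 and 3425, 4659 and 4090 CPM at P140 (1.12 and -0.11). Among ribosomal protein genes the direction of most calls also differed, with 17 of 77 higher and 1 lower before (median 0.36) and 6 higher and 28 lower after (median -0.40), or 2 and 10 with library totals. Their median transcript length was 1096 bases, within the shortest length decile, where 45.4% of genes were higher before adjustment. Before adjustment the ribosomal counts were 9 and 1 without P120 library 1, 6 and 1 without P120 library 2 or 3 or P140 library 2 and 10 and 1 without P140 library 3. Rpl35 (1.5, then 0.93) was called higher in both fits, while Rps25 (1.22, then 0.27) was not called after it. Reads of such genes may be shared with processed pseudogenes, and their counts are uncertain for that reason. Neither list had a direction that held on both scales.

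Glycolysis genes rose in 7 and fell in 5 of 23 cases (median 0.28). The glycolysis genes gave 6 higher and 1 lower with length adjustment (median 0.43), 1 and 1 with the Y-linked covariate and 7 and 6 with library totals. Glycolysis counts were 7 and 3 without P120 library 1 or P140 library 2 or 3 and 7 and 2 without P120 library 2. Eno1, the enolase of glycolysis, stood at 839.6, 684 and 762 CPM at P120 and 1416, 2089 and 2059 CPM at P140 (log2 fold change 1.28 ± 0.24 (SE), adjusted p = 0.00720, length-adjusted 1.62, adjusted p = 0.00782), and the aldolase Aldoa at 537, 555 and 484 CPM at P120 and 995, 1451 and 1388 CPM at P140 (log2 fold change 1.28 ± 0.27 (SE), adjusted p = 0.0100, length-adjusted 0.86, adjusted p = 0.0311). Hexokinase Hk1, which takes the first step, fell, at 31.7, 30.7 and 34.1 CPM at P120 and 6.89, 6.31 and 2.81 CPM at P140 (log2 fold change -2.59 ± 0.42 (SE), adjusted p = 0.00558, length-adjusted -1.39, adjusted p = 0.0286). Cholesterol and lipid genes split, 8 higher and 10 lower of 40 tested (median -0.19). Srebf1, a transcription factor of lipid synthesis, stood at 42.5, 38.0 and 46.5 CPM at P120 and 11.2, 4.78 and 7.23 CPM at P140 and was lower in every P140 library (log2 fold change -2.45 ± 0.36 (SE), adjusted p = 0.00530, length-adjusted -1.03, adjusted p = 0.0340). Mylip, a ligase that degrades the LDL receptor, also fell, at 115, 147 and 150 CPM at P120 and 52.7, 80.3 and 52.2 CPM at P140 (log2 fold change -1.15 ± 0.24 (SE), adjusted p = 0.0108, length-adjusted -0.88, adjusted p = 0.0508). The lipoprotein receptor Lrp1 (-1.49) lost its direction after the adjustment (0.14, adjusted p = 0.551). The lipid genes gave 8 higher and 3 lower with length adjustment (median 0.37), 1 and 3 with the Y-linked covariate and 3 and 16 with library totals. Lipid counts were 5 and 6 without P120 library 1, 3 and 5 without P120 library 2, 1 and 9 without P120 library 3, 4 and 8 without P140 library 2 and 4 and 6 without P140 library 3.

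Antioxidant and iron genes were higher in 14 and lower in 6 of 31 cases (median 0.33). The antioxidant and iron genes gave 13 higher and 2 lower with length adjustment (median 0.47), 4 and 1 with the Y-linked covariate and 8 and 8 with library totals. Antioxidant and iron counts were 9 and 3 without P120 library 3. Ftl1, the ferritin light chain that stores iron, stood at 3958, 3391 and 3199 CPM at P120 and 8035, 15330 and 12200 CPM at P140 (log2 fold change 1.75 ± 0.33 (SE), adjusted p = 0.00736, length-adjusted 1.32, adjusted p = 0.00923), and Prdx1, a peroxidase, at 560.5, 538 and 422 CPM at P120 and 1014, 1661 and 1110 CPM at P140 (log2 fold change 1.32 ± 0.25 (SE), adjusted p = 0.00792, length-adjusted 1.06, adjusted p = 0.0277). Acsl4, an enzyme that loads polyunsaturated fatty acids into membranes, fell, at 95.4, 99.8 and 90.5 CPM at P120 and 37.6, 27.5 and 32.9 CPM at P140 (log2 fold change -1.54 ± 0.23 (SE), adjusted p = 0.00530, length-adjusted -0.73, adjusted p = 0.0192). Sod1 is in the counts of the antioxidant and iron list. Its own level is not read here, since reads of the human transgene may be assigned to it. Of 9 NADPH oxidase genes 4 rose and none fell by edgeR, with 0 lower at an unadjusted p under 0.05 and 0 by DESeq2. Cyba, the p22phox subunit, stood at 598, 603 and 576 CPM at P120 and 1384, 2113 and 1909 CPM at P140 (log2 fold change 1.6 ± 0.25 (SE), adjusted p = 0.00557, length-adjusted 1.37, adjusted p = 0.00721), and the cytosolic subunit Ncf4 at 66.8, 72.5 and 71.7 CPM at P120 and 168, 166 and 183 CPM at P140 (log2 fold change 1.29 ± 0.23 (SE), adjusted p = 0.00636, length-adjusted 0.73, adjusted p = 0.0315). Both were higher in every P140 library and called in both fits. The NADPH oxidase genes gave 5 higher and 0 lower with length adjustment (median 0.73), 2 and 0 with the Y-linked covariate and 2 and 1 with library totals.

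Heat shock and unfolded protein response genes rose in 11 and fell in 5 of 34 cases (median 0.52). The heat shock list gave 11 higher and 2 lower with length adjustment (median 0.56), 0 and 1 with the Y-linked covariate and 5 and 7 with library totals. Heat shock counts were 5 and 5 without P120 library 1, 6 and 5 without P120 library 2 or P140 library 2 and 7 and 5 without P120 library 3 or P140 library 3. Pdia6, a disulfide isomerase of the endoplasmic reticulum, stood at 429.6, 509.7 and 585 CPM at P120 and 1048, 1517 and 1388 CPM at P140 (log2 fold change 1.38 ± 0.30 (SE), adjusted p = 0.0113, length-adjusted 1.80, adjusted p = 0.0107), and the lectin chaperone Canx at 836, 904 and 791 CPM at P120 and 533, 204 and 359 CPM at P140 (log2 fold change -1.21 ± 0.28 (SE), adjusted p = 0.0148, length-adjusted -0.86, adjusted p = 0.0335). Pdia6 was thus higher and Canx lower in every P140 library. Immediate early genes mostly did not pass, 2 rising and 2 falling of 26, among them Myc, a growth regulator, at 92.4, 74.7 and 93.6 CPM at P120 and 181, 143 and 172 CPM at P140 (log2 fold change 0.93 ± 0.23 (SE), adjusted p = 0.0200, length-adjusted 0.78, adjusted p = 0.0374). The immediate early genes gave 3 higher and 0 lower with length adjustment (median 0.26), 0 and 1 with the Y-linked covariate and 0 and 2 with library totals. Immediate early counts were 2 and 1 without P120 library 1 and 1 and 1 without P120 library 2 or 3 or P140 library 2. Of 68 cell cycle genes 5 rose and 4 fell (median -0.1). H2az1, a histone variant, and Pcna, the replication clamp, rose (1.24 and 1.24) and Cdk6, a G1 kinase, fell (-1.89), and neither H2az1 (0.32, adjusted p = 0.236) nor Pcna (0.23, adjusted p = 0.496) was called after adjustment. The cell cycle genes gave 3 higher and 2 lower with length adjustment (median -0.09), 3 and 2 with the Y-linked covariate and 2 and 10 with library totals. Cell cycle counts were 6 and 2 without P120 library 1 or P140 library 2, 4 and 2 without P120 library 3 and 5 and 12 without P140 library 1.

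Of 18 tested immune checkpoint genes (22 members) 9 rose and 1 fell (median 0.92). The checkpoint genes gave 6 higher and 1 lower with length adjustment (median 0.39), 1 and 1 with the Y-linked covariate and 5 and 3 with library totals. Checkpoint counts were 5 and 1 without P120 library 1, 2 or 3 or P140 library 3 and 7 and 2 without P140 library 1. Havcr2, encoding TIM-3, stood at 300, 311 and 265 CPM at P120 and 412, 341 and 454 CPM at P140 and was higher in each P140 library, but did not pass the test (log2 fold change 0.46 ± 0.18 (SE), adjusted p = 0.102, length-adjusted 0.45, adjusted p = 0.0948). Cd300a, an inhibitory receptor for phosphatidylserine, stood at 62.6, 89.0 and 117 CPM at P120 and 159.5, 245 and 264 CPM at P140 (log2 fold change 1.31 ± 0.28 (SE), adjusted p = 0.0109, length-adjusted 2.27, adjusted p = 0.00807), and Lgals9, a ligand of TIM-3, at 301, 232 and 264 CPM at P120 and 671, 525 and 569.8 CPM at P140 (log2 fold change 1.15 ± 0.25 (SE), adjusted p = 0.0124, length-adjusted 0.33, adjusted p = 0.355). Sirpa, the receptor of the CD47 "do not eat me" signal, was among the most abundant genes that fell, at 2207, 2379 and 1847 CPM at P120 and 758, 554 and 504 CPM at P140 (log2 fold change -1.82 ± 0.26 (SE), adjusted p = 0.00515, length-adjusted -0.58, adjusted p = 0.0387). Cd300a and Lgals9 were thus higher and Sirpa lower in every P140 library.

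The largest rises, beside the MHC class II genes and Atp6v0d2, were of genes low at P120. Ifi205, an interferon-inducible gene, stood at 0.123, 0.0185 and 0.230 CPM at P120 and 37.5, 1.48 and 15.3 CPM at P140 (log2 fold change 7.18 ± 1.51 (SE), adjusted p = 0.0105, length-adjusted 6.23, adjusted p = 0.0227), so that P140 library 2 was close to the P120 range. Cxcl13, the attractant of B cells, stood at 1.40, 0 and 0 CPM at P120 and 114, 0 and 14.7 CPM at P140, with library 2 at 0 at P140, and lost its call in the fits without P120 library 2 (adjusted p = 0.152), P120 library 3 (adjusted p = 0.156) and P140 library 1 (adjusted p = 0.215). Ms4a7, which marks border macrophages and some activated microglia, stood at 14.3, 3.59 and 1.92 CPM at P120 and 133, 120.3 and 97.0 CPM at P140 and lost its call in 6 of the 6 fits, with an adjusted p of 0.114 to 0.231. Gbp2 (1.95, 2.52 and 6.32 CPM at P120 and 101, 0 and 59.4 CPM at P140), an interferon-induced GTPase, was at 0 in P140 library 2 and lost its call in 5 of the 6 fits (all but the one without P140 library 2), with an adjusted p of 0.136 to 0.211. Cd69, an early activation marker, and Ccl5, a T cell attractant, lost theirs in 4 of the 6 fits (all but those without P140 library 2 and P140 library 3), with an adjusted p of 0.150 to 0.175, and in the fits without P120 library 1 (adjusted p = 0.121), P120 library 2 (adjusted p = 0.132) and P140 library 1 (adjusted p = 0.150). Tgtp2, another interferon-induced GTPase, stood at 18.2, 3.89 and 11.7 CPM at P120 and 206, 43.1 and 53.0 CPM at P140 (log2 fold change 3.16 ± 0.76 (SE), adjusted p = 0.0169, length-adjusted 2.99, adjusted p = 0.0225). P140 library 1 was the highest of the P140 libraries for each of these 7 genes.

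The largest falls were of genes near 0 at P140. Rab11fip3, an effector of recycling endosomes, stood at 9.19, 5.89 and 16.9 CPM at P120 and at 0 in all P140 libraries. Its group mean was at least 78.0-fold lower at P140 against a floor of 3 counts per library. Zfp407 and Tmed8 were likewise at 0, with group means at least 130- and 84.5-fold lower. Ajm1 (16.6, 7.98 and 10.8 CPM at P120 and 0, 0.0569 and 0 CPM at P140), H6pd (37.6, 54.5 and 23.5 CPM at P120 and 0.291, 0.0569 and 0 CPM at P140) and Dgkq (15.8, 16.6 and 10.7 CPM at P120 and 0.125, 0.0569 and 0 CPM at P140) kept only traces. Inpp5a, Adgra3 and Vcl, encoding a phosphatase, an adhesion receptor and vinculin, fell from 14.2, 15 and 14.1, from 17.0, 17.1 and 17.5 and from 17.2, 12.1 and 4.48 CPM to at most 0.0830, 0.284 and 0.208 CPM. Ddx3y, a Y-linked helicase, fell from 126, 131 and 2.94 CPM to at most 0.0569 CPM, along with the other Y-linked transcripts, and lost its call in 5 of the 6 fits (all but the one without P120 library 3), with an adjusted p of 0.105 to 0.156. Among the most abundant genes, Cst3 and Tmsb4x, an actin-binding peptide, rose (0.77 and 1.35), and Ivns1abp and the lysosomal mannosidase Man2b1 fell (-1.30 and -0.81), Man2b1 turning to 0.13, adjusted p = 0.751 after the adjustment and losing its call in the fits without P120 library 1 (adjusted p = 0.112) and P120 library 2 (adjusted p = 0.118).

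Markers of other cell types were measured because the gate can pass other myeloid cells. Neutrophil markers summed to 2975, 3356 and 2380 CPM at P120 and 4128, 888 and 322 CPM at P140, 1 of 17 tested falling, so P140 library 1 was high and P140 libraries 2 and 3 were low. Monocyte and border macrophage markers summed to 599, 389 and 294 CPM at P120 and 570.2, 355 and 323 CPM at P140, with 3 higher and 1 lower of 19 tested, H2-Aa and Ms4a7 among those higher. Higher calls in that list numbered 1 with length adjustment, 1 with the Y-linked covariate and 1 with library totals. They numbered 1 or 2 when any single LAG-3+/+ library was left out. B cell markers summed to 324, 322 and 286 CPM at P120 and 558, 537 and 593 CPM at P140 and were thus higher in every P140 library. Ighm, the heavy chain of IgM, stood at 284, 284 and 247 CPM at P120 and 497, 484 and 514 CPM at P140 (log2 fold change 0.88 ± 0.25 (SE), adjusted p = 0.0352, length-adjusted 0.13, adjusted p = 0.735) and lost its call in the fit without P120 library 3 (adjusted p = 0.120), and Cd79b (1.05) in 5 of the 6 fits (all but the one without P140 library 2), with an adjusted p of 0.126 to 0.173. Neither call held with length adjustment or with library totals. Oligodendrocyte markers summed to 2412, 2415 and 2134 CPM at P120 and 3724, 4270 and 4258 CPM at P140, nearly all of it Trf, which microglia also express, at 2237, 2251 and 1998 CPM at P120 and 3518, 4111 and 4080 CPM at P140 (log2 fold change 0.85 ± 0.20 (SE), adjusted p = 0.0142, length-adjusted 0.81, adjusted p = 0.0141). Mag, a myelin glycoprotein, also rose (1.38) and lost its call in the fit without P120 library 1 (adjusted p = 0.104). T and NK cell, astrocyte, neuron, endothelial and erythroid markers each summed to at most 152 CPM in every library, and only Klrb1c, an NK cell receptor, was called among them (-4.55), losing its call in 5 of the 6 fits (all but the one without P140 library 1), with an adjusted p of 0.146 to 0.207. The part of other cells in the results above was not tested.

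The stage change was also compared with that in SOD1G93A/LAG-3-/- microglia of the same table. The difference of the changes passed the test for 32 genes at an adjusted p under 0.1 (0.171% of those tested), and for 9 after the length adjustment (0.0482%). Of the named genes 5 were among them, H2-Aa, Ajm1, H6pd, Rab11fip3 and Zfp407. All 5 were named as largest rises or falls between the LAG-3+/+ groups, and the difference uses that same change. How many named genes passed is therefore not a result about them. H2-Aa in LAG-3-/- microglia stood at 16.7, 27.9 and 49.5 CPM at P120 and 44.2, 32.4 and 22.0 CPM at P140, with overlapping stages (difference of log2 fold changes -4.30, adjusted p = 0.0374). With any 1 of the P120 LAG-3+/+ libraries left out no gene passed, by edgeR, although 2200, 2191 and 2266 genes were at an unadjusted p under 0.05, against 2541 in the full model and 1326 calls by DESeq2. Without P140 LAG-3+/+ library 1, 397 genes passed. Without the P140 LAG-3-/- library 1, which shared the length tilt of the P140 LAG-3+/+ libraries, 1713 passed. Differences between the genotypes in stage change and differences in the tilt between libraries cannot be told apart.

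**Figure D5:**
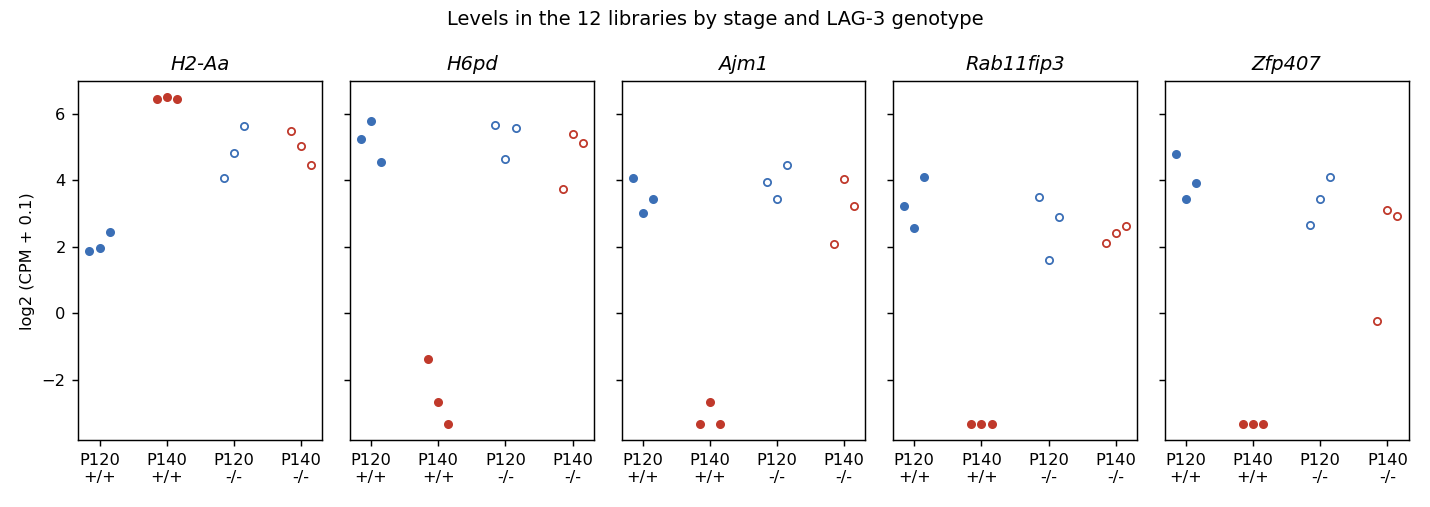
Level, as log2 of CPM plus 0.1, of the 5 named genes whose stage change differed between genotypes, one point per library in LAG-3+/+ (filled) and LAG-3-/- (open) microglia. H2-Aa rises from between 3.56 and 5.38 CPM to between 86.2 and 89.9 CPM with intact Lag3, and its stages overlap without it.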

How the data were processed

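Microglia sorted from lumbar spinal cord were sequenced in 12 libraries of SOD1G93A mice, of which the 6 with intact Lag3 were compared. Reads were trimmed with Trim Galore 0.6.7 and quantified with Salmon 1.9.0 against GRCm39 (annotation release not given in the sources used here), and the authors deposited expected counts per gene made with tximport in R 4.2.1, neither whole nor normalized. The 74016 genes were rounded to whole counts, and 66 identifiers were absent from GENCODE vM39, which gave names and coordinates. In edgeR 4.0.16 under R 4.3.3, filterByExpr (minimum count 10, minimum total 15) left 18669 genes, scaled by TMM and fitted in 1 robust quasi-likelihood model of 4 groups, with Benjamini-Hochberg adjustment over all genes. An adjusted p under 0.1 was the threshold, whatever the fold. The standard error is the log2 fold change divided by the square root of F.

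The length adjustment took, per library, a spline (5 degrees of freedom) of log2 level on length and GC content of the canonical transcript over protein-coding genes and used it as offsets. The canonical transcripts of Ctsl (5908 bases) and Olfml3 (5470 bases) are long for these genes, and their adjusted values rest on those lengths. Alternatives were DESeq2 1.42.0, other scalings, filters, thresholds, covariates, the replicate block and each library left out. Library totals of 23981406 to 49512632 counts set the precision, and the common dispersion was 0.603. The fits were also run on simulated counts. Those were drawn with a lower dispersion than these data have, so that run gives no error rates for them.

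Named genes were Lag3, Havcr2, every DAM and homeostatic marker, the 10 largest rises and falls among called protein-coding genes of at least 10 CPM, the 5 most abundant called genes in each direction and the 3 members of each other list with the smallest adjusted p, of which some are not reported here. The gene lists and this rule were chosen with earlier results of these data known. Promoter windows come from RefSeq. No column of the table was left out.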

Additional observations from a re-analysis of the deposited data

Results flagged for a closer look

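In 5 named genes the change from P120 to P140 differed between LAG-3-/- and LAG-3+/+ microglia by edgeR's interaction test. All 5 had been named for a large change in the LAG-3+/+ libraries, which this test uses again, so their selection favoured such a difference. The differences, LAG-3-/- minus LAG-3+/+ on the log2 scale, were -4.299 for H2-Aa, 8.598 for Ajm1, 7.864 for H6pd and 11.069 for Rab11fip3 (adjusted p = 0.0374 each), and 11.262 for Zfp407 (adjusted p = 0.0908). The last 2 have all P140 LAG-3+/+ libraries at 0, so their fitted sizes depend on the prior count. In LAG-3-/- microglia Ajm1 stood at 15.3, 10.7 and 21.7 CPM at P120 and 4.14, 16.2 and 9.23 CPM at P140, H6pd at 50.3, 24.6 and 47.9 CPM at P120 and 13.2, 42.0 and 35.0 CPM at P140, Rab11fip3 at 11.3, 2.93 and 7.42 CPM at P120 and 4.22, 5.20 and 6.15 CPM at P140 and Zfp407 at 6.26, 10.7 and 17.1 CPM at P120 and 0.750, 8.52 and 7.52 CPM at P140. Each of these 4 genes was therefore present in all P140 libraries without LAG-3, and lowest in library 1 of that group. No difference of this kind passed with the replicate block, with the listed sex or the Y-linked level as a covariate, or without any 1 of the P120 LAG-3+/+ libraries (edgeR; 2218, 2349, 1760, 2200, 2191 and 2266 genes at an unadjusted p under 0.05), whereas DESeq2 called 1326. With length adjustment 4 of the 5 still passed. Groups of 3 libraries are too small for a test of single outlying libraries.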

How the results depend on the processing

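Of the 159 named genes 122 were called, and none of those turned direction under any alternative except 8 with the length adjustment and 7 with it and the replicate block. The counts of 2219 higher and 2899 lower genes stayed within 1.5 times under RLE size factors, other filters, the 6 libraries alone and the replicate block (1932 and 2497). They also did under the listed sex, stricter thresholds and DESeq2 (3286 and 3725). The listed sex did not match Xist in 4 of the 6 compared libraries, so that fit cannot show how far sex enters the counts. Library totals gave 971 higher and 4120 lower, and the scaling alone moved the split. The length adjustment gave 1810 lower genes, and 1379 with the replicate block as well. The Y-linked level, a covariate added after seeing the data, gave 467 higher and 923 lower. Leaving out single LAG-3+/+ libraries gave 1348 to 2175 higher and 1870 to 3080 lower genes, with the lowest counts without P120 library 2, and leaving out P140 LAG-3-/- library 1 gave 2425 and 3173. Deviations from the group means correlated across genes at 0.0131, 0.0066 and 0.0078 in same-numbered libraries, and at -0.0177 to 0.0098 in differently numbered ones. With 3 libraries a group such values cannot settle whether the replicate numbers pair libraries. With the replicate block 5 named genes lost their call.

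Stage changes that differed between genotypes were called for 5 named genes. That number was 16 without a filter on low counts, 38 with DESeq2, 63 without P140 LAG-3-/- library 1 (added after seeing the data) and 0 to 16 when single LAG-3+/+ libraries were left out. It was 0 with the replicate block, with and without the length adjustment, with the listed sex and with the Y-linked level (edgeR; 56, 40, 61 and 45 named genes at an unadjusted p under 0.05). The cause was not tested.

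Log2 fold changes that turned sign with library totals were Havcr2 -0.02, Slc1a3 -0.047, Tmem119 -0.058, Flt1 -0.072, Slc2a5 -0.066, Egr1 -0.09, Syp -0.086, Bin1 -0.21, Ighd -0.21, Cd8b1 -0.25, Ctsd -0.27, Ctsb -0.29 and Jun -0.39, none of them called. With the length adjustment they were Clec7a -0.001, mt-Cytb -0.11, mt-Co1 -0.12, Cd8b1 -0.29, Ch25h -0.31, Ighd -0.49, mt-Co2 -0.49, Man2b1 0.13, Lrp1 0.14, Mef2c 0.26, Itgax 0.31, Stab1 0.41 and Cspg4 1.35. Adding the replicate block to it gave mt-Cytb -0.11, mt-Co1 -0.13, Ch25h -0.24, Cd8b1 -0.36, mt-Co2 -0.49, Ighd -0.59, Man2b1 0.12, Lrp1 0.14, Mef2c 0.24, Itgax 0.29, Stab1 0.40 and Cspg4 1.2. With the Y-linked level they were Cd8b1 -0.036, Flt1 -0.13 and Egr1 -0.24, and with the listed sex Syp -0.005. Leaving out single libraries gave ranges of -2.35 to 0.23 for Cd8a, -0.52 to 0.72 for Egr1, -0.11 to 0.69 for Ighd, -0.73 to 0.91 for Syp, -0.09 to 0.41 for Jun and -0.14 to 0.74 for Cd8b1. With 3 libraries a group and a common dispersion of 0.603, genes at a few CPM carry wide errors.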

Other observations

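Of 5614 long noncoding RNA genes tested, 134 were higher and 402 lower at P140. Both are smaller shares than the 11.9% higher and 15.5% lower over all genes tested. Among all genes called lower, 416 had no P140 library above 3 counts, and among those called higher, 47 had no P120 library above 3 counts. The P140 libraries detected fewer genes than the P120 libraries at equal total counts, and the part of that in these counts was not tested.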
